A study of Mus musculus with 9 samples.

Results

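Transcripts of 34 genes of cholesterol and fatty acid metabolism were followed across 9 RNA-seq libraries of mouse splenic CD4+ T cells. The genes were taken by name, for their known roles, from the 55487 genes listed, with earlier results of these data known. They fall into the mevalonate arm of cholesterol synthesis (6 genes), the squalene and sterol arm (11 genes) and regulators of the sterol response (6 genes). The others belong to fatty acid synthesis (3 genes), fatty acid desaturation and elongation (5 genes) and targets of the liver X receptors (LXR, 3 genes). All 9 libraries came from wild-type female Trail-r+/+ C57BL/6 mice aged 6 to 7 weeks, whose CD4+ T cells had been enriched from the spleen by negative selection and cultured in RPMI-1640 with fetal calf serum and antibiotics. In the medium group (3 libraries) the cells received no Abs, and the length of this culture was not given in the sources used here. Activated T cells (3 libraries) received anti-CD3 Abs at 3 µg/ml and anti-CD28 Abs at 2 µg/ml for 24 h, which engage the T cell receptor complex and a costimulatory receptor. TRAIL-treated activated T cells (3 libraries) received the same Abs for 24 h in the presence of TRAIL, a death ligand of the tumor necrosis factor family, at 10 µg/ml. The labels do not say whether the libraries of a group came from separate animals or cultures, so the p-values measure only the spread between these libraries, which may be technical.

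Cholesterol is built from acetyl-CoA through mevalonate, isoprenoid diphosphates, squalene and lanosterol, and fatty acids are built from the same precursor by acetyl-CoA carboxylase and fatty acid synthase. Both routes are transcribed under sterol regulatory element-binding proteins (SREBP), which are held in the endoplasmic reticulum by SCAP and INSIG proteins while sterols are plentiful. LXR are nuclear receptors activated by oxysterols, and they drive genes that export cholesterol and limit its uptake. Dividing T cells are known to draw on lipid synthesis for new membranes.

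Levels are given as TPM (transcripts scaled to one fixed total per library), a measure of abundance per length, so levels can be compared between genes but depth is unknown. The test was limma on log2(TPM + 1), in one model of the 9 libraries and of the 15536 genes that reached 1 TPM in 3 libraries or more. A change was called where the adjusted p (Benjamini-Hochberg) was below 0.05 and the log2 fold change was 1 or more in size. All 34 genes passed the filter on low values. Log2 fold changes are on this scale, which understates the change of low genes, whereas levels called n-fold higher or lower are ratios of mean TPM without a pseudocount. Group means are given ± SD (n = 3).

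Before the lipid genes are described, some facts of the libraries bear on them. The summed level of 8 T cell markers, Cd4 and the CD3 genes among them, was 3030 to 3210 TPM in medium, 2820 to 3030 TPM in activated and 3030 to 3240 TPM in TRAIL-treated activated T cells. Within this sum Cd2 rose (392 to 839 TPM on average) and Cd3g fell (615 to 299 TPM) upon activation, and Cd4 stood at a mean of 384, 220 and 384 TPM in the groups as ordered here. Of 6 genes known to respond to activation, 4 (Il2ra, Tnfrsf4, Tnfrsf9 and Myc) rose upon activation and fell with TRAIL. The other two, Cd69 and Cd44, were not called, with means of 448, 380 and 733 TPM and of 116, 83.8 and 98.6 TPM. The CD8 T cell markers Cd8a and Cd8b1 summed to 110 to 118, 94.2 to 105 and 46.9 to 49.4 TPM, and both fell in TRAIL-treated activated T cells relative to medium, Cd8a also relative to activated T cells. The part of T cell subsets in the levels below was not tested. Markers of other spleen cells were present as well and moved with the groups. The 12 myeloid markers summed to 1680 to 1840 TPM in medium, 44.4 to 51.1 TPM after activation and 1390 to 1570 TPM with TRAIL, and all 12 fell in the first comparison and rose in the second. Summed B cell markers ranged over 2260 to 2370, 187 to 205 and 937 to 1060 TPM in the same order, and erythroid markers over 2140 to 2590, 24.8 to 39.6 and 619 to 669 TPM. In such bulk samples, fewer cells of a type and less RNA per cell cannot be told apart. The activated library of replicate 1 also stood apart in its long transcripts. On the log2 scale, genes with transcripts of 4244 bases or more lay at a median of -0.42 from the mean of the other activated libraries. Those of up to 1306 bases lay at 0.097. Transcript length moved with the comparisons as well. The median log2 fold change of the long group was -0.36 upon activation, 0.17 with TRAIL and -0.18 in TRAIL-treated activated T cells relative to medium, beside 0.001, 0.069 and -0.012 in the short group. Fasn, Acaca and Abca1 belong to the long group, with longest transcripts of 10050, 9513 and 10262 bases. Lss, Elovl6, Abcg1, Scd2, Stard4, Srebf2, Scd1, Sc5d, Hsd17b7, Sqle, Acly and Srebf1 belong to it as well. The part of transcript length in the differences of all these genes was not tested.

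Activation with anti-CD3/CD28 Abs raised many transcripts of lipid synthesis, and in the presence of TRAIL most of these were lower. Of the 34 genes, 16 rose and 4 fell in activated T cells relative to medium, together 58.8% of them, where 31.9% of all genes tested were called (12.4% of genes higher and 19.5% lower). The split over all genes depended on the scaling, with 38.8% of these calls higher as fitted here, 52.1% after quantile normalization and 47.4% after median-of-ratios scaling. In TRAIL-treated activated T cells relative to activated T cells, 17 of the 34 fell and 4 rose, together 61.8%, where 30.9% of all genes tested were called (16.6% higher and 14.3% lower). The median log2 fold change of the 34 genes was 0.94 upon activation and -0.99 with TRAIL, beside medians of -0.15 and 0.011 over all genes tested. Both comparisons share the 3 activated libraries, so a gene that is high in these libraries is counted in both. In TRAIL-treated activated T cells relative to medium, 1 of the 34 genes was called changed, Insig1, where 4.62% of all genes tested were called (2.49% higher and 2.13% lower). Of the calls over all genes in this comparison, 53.9% were higher as fitted here, 70.6% after quantile normalization and 73.8% after median-of-ratios scaling. At an adjusted p under 0.05 without a fold threshold, 10 of the 34 differed in this last comparison, 3 higher and 7 lower, where 32.6% of all genes tested did (8.03% higher and 24.6% lower).

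**Figure D1:**
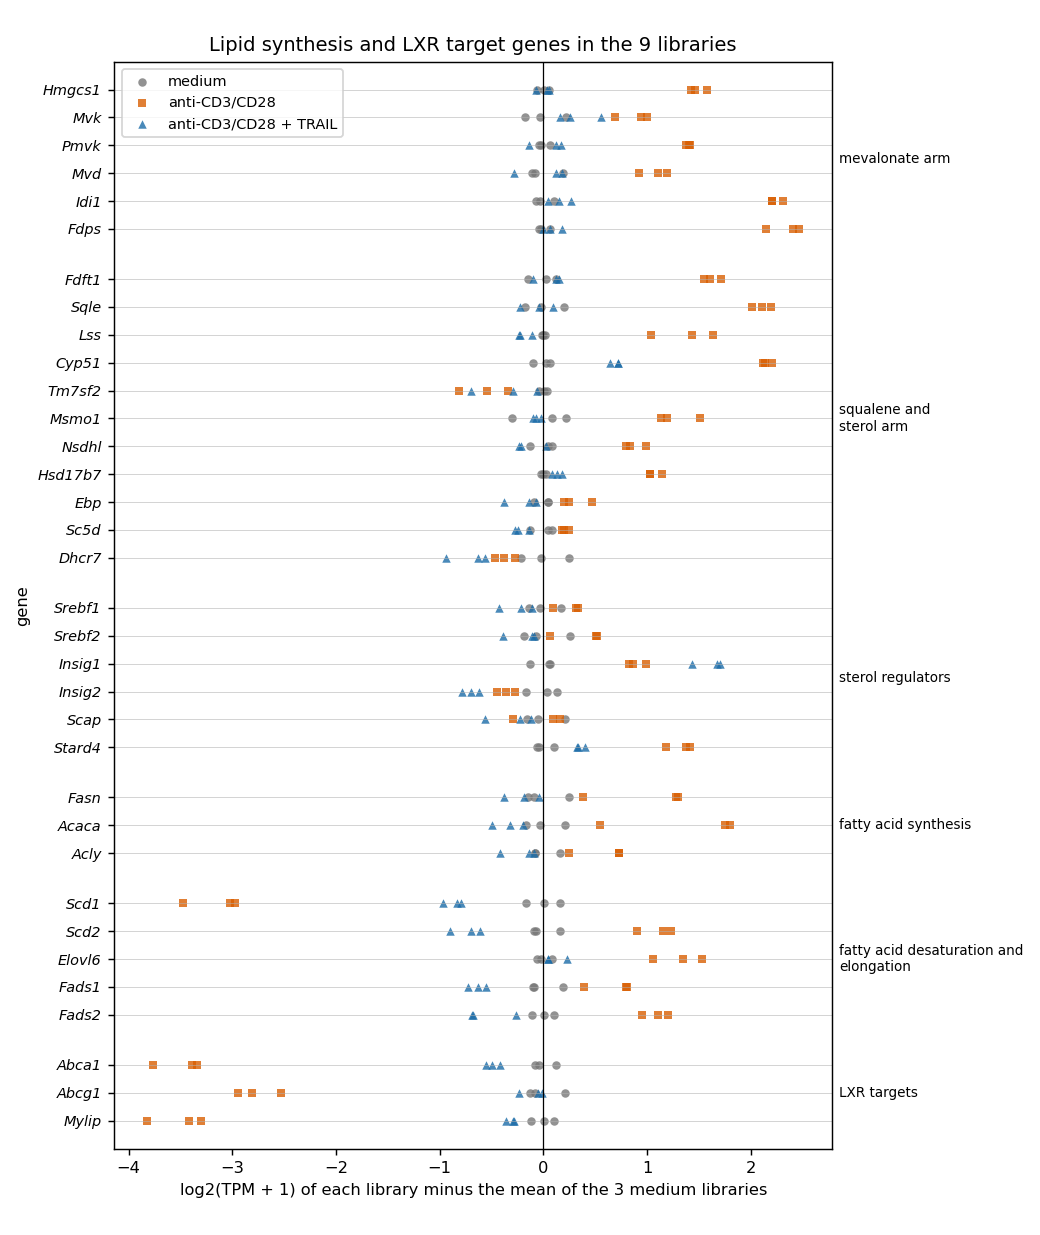
Log2(TPM + 1) of each of the 34 genes in each of the 9 libraries, minus the mean of the 3 medium libraries (horizontal axis, log2 scale), with the genes ordered by role. Grey circles are medium, orange squares activated and blue triangles TRAIL-treated activated T cells. The orange squares of Idi1, Fdps, Sqle and Cyp51 lie farthest to the right, those of Scd1 and the 3 LXR targets lie farthest to the left, and the blue triangles of Insig1 lie to the right of all its other points.

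In the mevalonate arm, 5 of 6 genes rose upon activation, and the same 5 (Hmgcs1, Pmvk, Mvd, Idi1 and Fdps) fell with TRAIL. Of all genes tested, 12.4% were called higher upon activation and 14.3% lower with TRAIL. The median log2 fold changes of the arm were 1.45 and -1.42. The summed level of the 6 genes was 147.7 ± 0.20 TPM in medium, 531.5 ± 23.1 TPM in activated and 156.7 ± 9.59 TPM in TRAIL-treated activated T cells. Fdps, which makes farnesyl diphosphate, stood at 36.1, 35.6 and 38.4 TPM in the medium libraries, 208, 166 and 199 TPM in the activated libraries and 36.7, 41.6 and 38.3 TPM with TRAIL. The activated libraries were thus far above the other 6, which overlapped each other. Fdps rose by 2.34 on the log2 scale upon activation (SE 0.11, adjusted p = 2.46e-08) and fell by 2.26 with TRAIL (SE 0.11, adjusted p = 3.68e-08).

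Idi1, the isomerase that interconverts the isoprenoid building blocks, had 24.5, 22.3 and 21.6 TPM in medium, 117, 108 and 109 TPM upon activation and 25.4, 27.6 and 23.6 TPM with TRAIL. Its level was 4.88-fold higher in activated than in medium cells and 4.36-fold higher than in TRAIL-treated activated T cells. Hmgcs1, which makes HMG-CoA, stood at 43.8 to 47.8 TPM in medium, 125 to 139 TPM upon activation and 43.7 to 47.6 TPM with TRAIL, so that the medium and TRAIL-treated libraries overlapped. Pmvk and Mvd, a kinase and the decarboxylase that act between mevalonate and isopentenyl diphosphate, rose by 1.40 and 1.08 and fell by 1.35 and 1.07 on the log2 scale. Without the TRAIL-treated library of replicate 3, Mvd stood at -0.93 in the second comparison and was not called. Mvk, the kinase of mevalonate itself, was not called: its log2 fold changes were 0.88 (adjusted p = 0.000443) and -0.55 (adjusted p = 0.00777). By limma, 0 of the 6 genes were called in TRAIL-treated activated T cells relative to medium (0 of 6 also at an unadjusted p under 0.05), where 4.62% of all genes tested were called, and their log2 fold changes ranged from 0.005 to 0.33. For Hmgcs1 the 95% confidence interval of this last difference was -0.19 to 0.20.

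In the squalene and sterol arm, 6 of 11 genes rose upon activation, where 12.4% of all genes tested were called higher. With TRAIL 6 of 11 fell, where 14.3% of all genes tested were called lower. The median log2 fold changes of the arm were 1.07 and -1.01. The 6 genes that rose upon activation act from squalene synthesis to the removal of methyl groups from the sterol ring. Sqle, the squalene epoxidase, had 11.04, 14.6 and 12.4 TPM in medium, 54.0, 57.8 and 61.1 TPM in activated and 13.5, 12.2 and 10.6 TPM in TRAIL-treated activated T cells. This was a 4.55-fold higher level in activated than in medium cells and 4.76-fold higher than with TRAIL. Fdft1, the squalene synthase, and Lss, which closes the lanosterol rings, rose by 1.62 and 1.37 on the log2 scale and both fell by 1.56 with TRAIL.

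Cyp51, the demethylase of lanosterol, stood at 24.98, 22.2 and 24.2 TPM in medium and 107, 108 and 113 TPM upon activation. With TRAIL it stood at 37.6, 39.7 and 39.8 TPM, between the other groups and overlapping neither. Its log2 fold change in TRAIL-treated activated T cells relative to medium was 0.69 (SE 0.086, adjusted p = 0.000354), under the fold threshold. Msmo1, Nsdhl and Hsd17b7, which together remove methyl groups from the sterol ring, had log2 fold changes of 1.28, 0.87 and 1.07 upon activation and -1.34, -1.01 and -0.94 with TRAIL. Of these, Msmo1 was called in both comparisons, Nsdhl with TRAIL and Hsd17b7 upon activation. The uncalled differences were close to the fold threshold: Hsd17b7 was also called with TRAIL at a pseudocount of 0.1 (-1.04) and under quantile normalization (-1.02), and Nsdhl also upon activation under median-of-ratios scaling (1.02) and quantile normalization (1.09). The call of Nsdhl with TRAIL was also close to it and was lost without the activated library of replicate 3 (-0.96) or the TRAIL-treated library of replicate 2 (-0.98) or 3 (-0.97), and under median-of-ratios scaling.

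The remaining 4 genes of the arm were called in no comparison. Ebp, a sterol isomerase, had log2 fold changes of 0.30 upon activation and -0.50 with TRAIL, and Sc5d, a sterol desaturase, 0.21 and -0.42. Tm7sf2, a sterol reductase, stood at 6.53 to 6.95 TPM in medium, 3.43 to 5.14 TPM upon activation and 3.80 to 6.44 TPM with TRAIL. Dhcr7, the reductase of the last step, had 23.2, 32.4 and 26.6 TPM in medium, 19.4, 22.3 and 20.6 TPM in activated and 18.0, 17.2 and 13.7 TPM in TRAIL-treated activated T cells. Tm7sf2 and Dhcr7 were therefore the enzymes of cholesterol synthesis whose activated libraries all lay below the medium libraries, with log2 fold changes of -0.56 and -0.37 (adjusted p = 0.016 and 0.0405). These adjusted p depended on the processing and ranged over 0.00674 to 0.271 for Tm7sf2 and 0.0193 to 0.176 for Dhcr7 across the alternatives, with log2 fold changes of -0.22 and -0.19 under quantile normalization. Over the 17 enzymes of both arms, the summed level was 338.8 ± 3.28, 960.0 ± 31.5 and 339.9 ± 14.2 TPM in medium, activated and TRAIL-treated activated T cells.

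**Figure D2:**
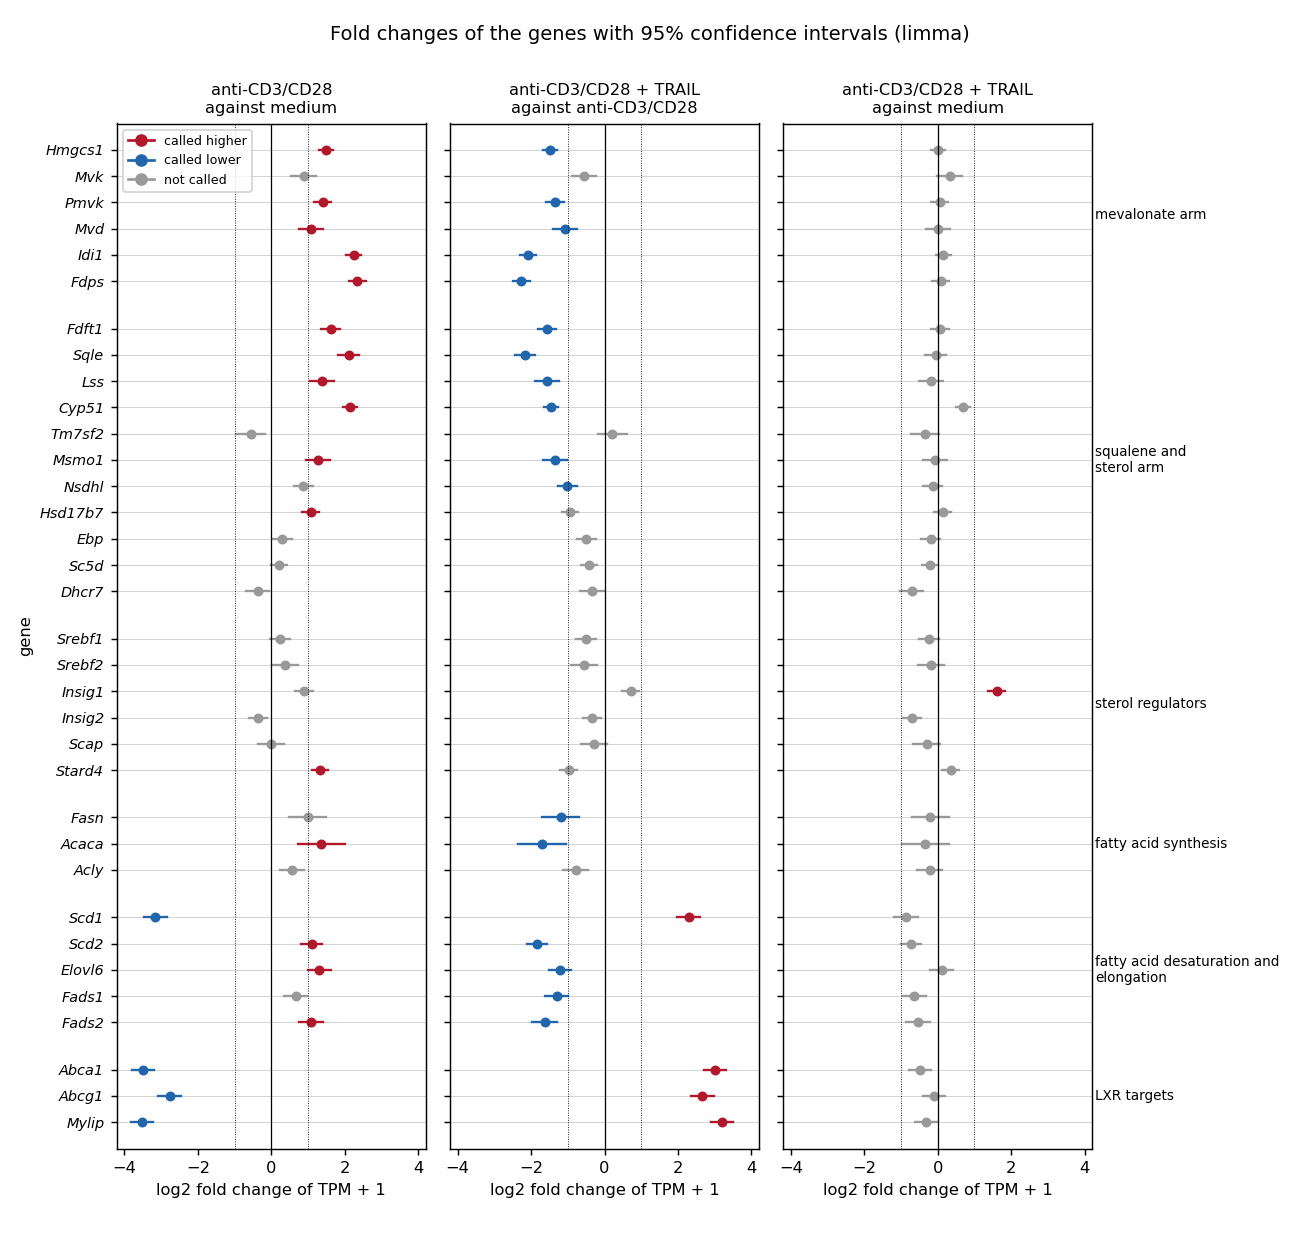
Log2 fold changes of TPM + 1 (horizontal axis) for the 34 genes in the 3 comparisons, with 95% confidence intervals from limma as lines and dotted lines at -1 and 1. Red points were called higher, blue points called lower and grey points not called, with 20, 21 and 1 called from left to right.

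Reference promoters were available for 26 of the 34 genes, as RefSeq sequence of 250 bases before to 50 bases after the transcription start on GRCm38.p6. They were searched on both strands for the letters TCACNCCAC (the core of a sterol response element, which SREBP bind), CACGTG (an E-box, which SREBP can also bind) and CCAAT (bound by NF-Y, a partner of SREBP). The sterol response element letters were found in 1 of 26 genes, Hmgcs1, beside 1.44% of all 27025 genes with a promoter in the same table. CACGTG was found in 6 of 26, or 23.1% (Hsd17b7, Sc5d, Dhcr7, Insig1, Scap and Abca1), beside 8.09% of all genes. CCAAT was found in 21 of 26, or 80.8%, beside 41.1% of all genes. A match is only a match of letters, and a missing one says only that these letters are absent from this window. The windows of 3 genes are shown from position -250 to -51, counted from the transcription start, as examples of an enzyme that rose with activation, of the regulator that was highest with TRAIL and of an LXR target, which moved the opposite way. Capitals mark the searched letters on either strand. The Hmgcs1 window lies at chr13:119690101-119690300 (+ strand), the Insig1 window at chr5:28071162-28071361 (+ strand) and the Mylip window at chr13:45389492-45389691 (+ strand), none of them overlapping an annotated exon, and the searched letters do not overlap one another in them.
Hmgcs1: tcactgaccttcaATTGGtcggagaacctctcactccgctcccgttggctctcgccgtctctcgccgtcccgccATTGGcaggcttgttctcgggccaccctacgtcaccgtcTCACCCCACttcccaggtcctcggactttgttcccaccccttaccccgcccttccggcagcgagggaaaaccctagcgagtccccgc
Insig1: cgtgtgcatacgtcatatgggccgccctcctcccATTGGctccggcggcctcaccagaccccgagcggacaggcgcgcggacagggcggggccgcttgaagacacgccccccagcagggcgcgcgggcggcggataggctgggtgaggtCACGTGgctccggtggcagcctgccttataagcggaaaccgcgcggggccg
Mylip: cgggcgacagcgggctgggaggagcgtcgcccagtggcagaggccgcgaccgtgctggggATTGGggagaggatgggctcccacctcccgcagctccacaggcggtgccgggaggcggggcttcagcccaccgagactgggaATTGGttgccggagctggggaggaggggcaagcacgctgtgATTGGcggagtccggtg
In Hmgcs1 the sterol response element letters begin at position -137, preceded by CCAAT on the reverse strand at -237 and -176. Insig1 holds CACGTG at -101 and CCAAT on the reverse strand at -216. Mylip holds CCAAT on the reverse strand at -190, -108 and -67.

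Of the 6 regulators, 1 rose upon activation, Stard4, a sterol transport protein, where 12.4% of all genes tested were called higher. With TRAIL relative to activation limma called 0 of the 6, where 30.9% of all genes tested were called, although at any fold change 5 of the 6 had an adjusted p under 0.05 there (67.1% of all genes tested had). Stard4 stood at 13.1 to 14.7 TPM in medium, 32.3 to 38.0 TPM upon activation and 17.3 to 18.4 TPM with TRAIL. With TRAIL relative to activation, Stard4 had a log2 fold change of -0.97 (adjusted p = 1.3e-05), just short of the fold threshold, and it was called lower without the activated library of replicate 1 (-1.04) and with a pseudocount of 0.1 (-1.01). Srebf2 and Srebf1 encode the SREBP themselves. Srebf2 had 121, 165 and 131 TPM in medium, 144, 197 and 197 TPM upon activation and 129.5, 128 and 105 TPM with TRAIL, and Srebf1 had 49.7 to 61.6, 58.2 to 69.1 and 40.4 to 50.6 TPM. For both genes the medium libraries overlapped with the activated and with the TRAIL-treated libraries, and the log2 fold changes were 0.36 and 0.25 upon activation (adjusted p = 0.0626 and 0.0987) and -0.56 and -0.50 with TRAIL (adjusted p = 0.00965 and 0.00457). Srebf1 made up 28.4 ± 1.04% of the summed level of the pair in medium, 26.8 ± 1.70% upon activation and 27.6 ± 0.61% with TRAIL. Scap, the escort of SREBP, overlapped in every comparison.

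Insig1 was the one gene of the 34 called in TRAIL-treated activated T cells relative to medium. It encodes a retention protein of the SCAP-SREBP complex and is itself known as an SREBP target. It had 45.1, 39.3 and 44.7 TPM in medium, 78.9, 77.2 and 86.1 TPM in activated and 118, 139.7 and 142 TPM in TRAIL-treated activated T cells. The groups did not overlap, and the level was highest with TRAIL. Relative to medium, Insig1 rose by 1.61 on the log2 scale in TRAIL-treated activated T cells (SE 0.10, adjusted p = 5.3e-06), a 3.10-fold higher mean. Its log2 fold changes upon activation (0.89, adjusted p = 2.96e-05) and with TRAIL relative to activation (0.71, adjusted p = 0.000152) were both under the fold threshold.

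Insig2, the paralog of Insig1, followed the opposite order. It stood at 20.4, 16.5 and 19.1 TPM in medium, 15.2, 13.4 and 14.3 TPM upon activation and 11.7, 11.1 and 10.4 TPM with TRAIL, again without overlap and lowest with TRAIL. The share of Insig1 in the summed level of the pair was therefore 69.7 ± 0.84% in medium, 84.9 ± 1.00% in activated and 92.3 ± 1.17% in TRAIL-treated activated T cells. Each of the 3 differences gave p = 0.1 in a two-sided exact permutation test (adjusted p = 0.18 over 9 tests of shares), the smallest p that 3 libraries against 3 allow. Among all 34 genes, Insig1 was the only one whose TRAIL-treated libraries all lay above both other groups, as did 6.34% of all genes tested. The TRAIL-treated libraries lay below both other groups for 9 of the 34 genes (Lss, Sc5d, Dhcr7, Insig2, Acaca, Acly, Scd2, Fads1 and Fads2), as did 15.8% of all genes tested.

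**Figure D3:**
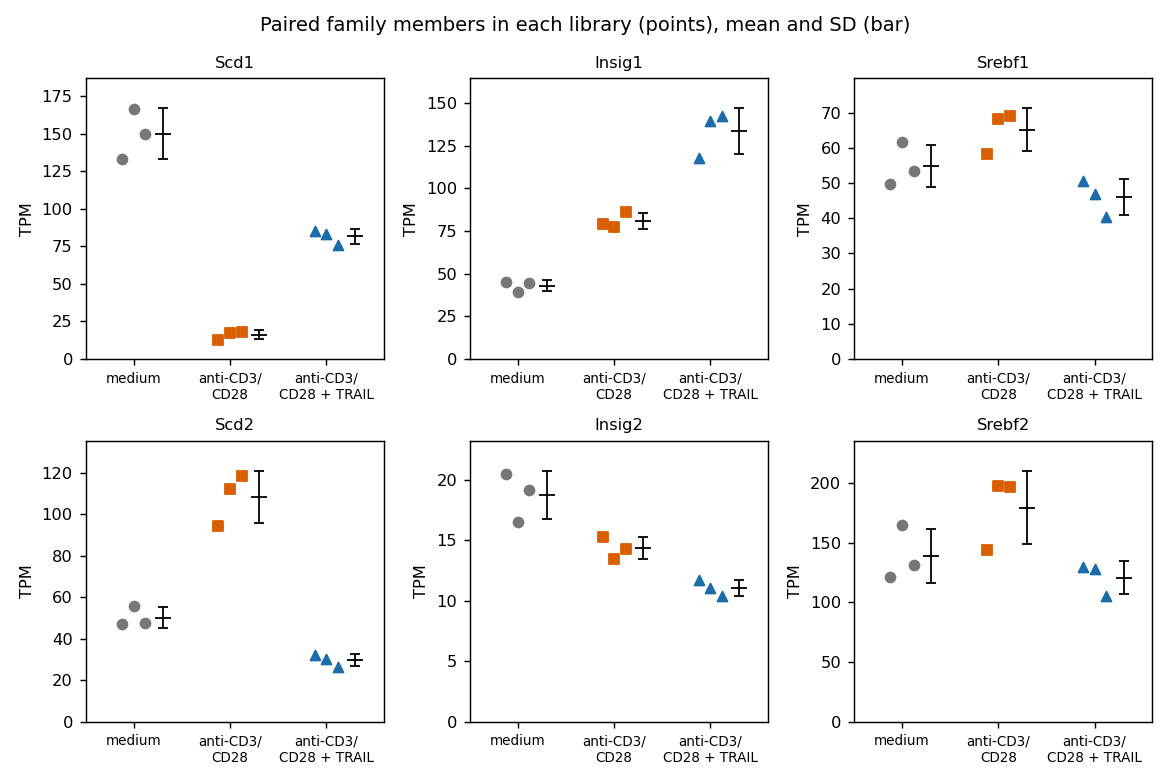
TPM of Scd1 and Scd2, Insig1 and Insig2, and Srebf1 and Srebf2 (vertical axes, each from 0) in the 3 libraries of each group (points), with the mean and SD beside them. Scd1 is lowest and Scd2 highest in activated T cells, Insig1 is highest and Insig2 lowest with TRAIL, and Srebf1 and Srebf2 keep a similar ratio.

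Among the enzymes that make fatty acids, Acaca rose upon activation, and Fasn and Acaca fell with TRAIL. Acaca, an acetyl-CoA carboxylase, had 8.56, 11.4 and 9.48 TPM in medium, 14.7, 36.5 and 35.1 TPM in activated and 8.38, 7.61 and 6.62 TPM in TRAIL-treated activated T cells. Fasn, the fatty acid synthase, had 42.0, 55.5 and 43.8 TPM in medium, 61.4, 117 and 115 TPM upon activation and 45.3, 40.8 and 35.8 TPM with TRAIL. In both genes the activated library of replicate 1 was much lower than the other two, though above every library of the other groups. Both belong to the long transcripts, which were low in this library. Acaca rose by 1.36 (adjusted p = 0.00183) and fell by 1.70 (adjusted p = 0.000431) on the log2 scale, and without that library it rose by 1.78 and fell by 2.11. For Fasn the log2 fold change upon activation was 0.99 with all libraries (adjusted p = 0.00307), just under the fold threshold, and 1.29 without that library, where it was called. With TRAIL, Fasn fell by 1.19 (adjusted p = 0.000958), or by 1.495 without that library. Acly, which supplies cytosolic acetyl-CoA from citrate, was not called, with 128 to 151 TPM in medium, 161 to 226 TPM upon activation and 101 to 127 TPM with TRAIL.

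Of the 5 genes of desaturation and elongation, 3 rose and 1 fell upon activation, and 1 rose and 4 fell with TRAIL, beside 12.4% of all genes tested higher and 19.5% lower in the first comparison and 16.6% higher and 14.3% lower in the second. Scd1 and Scd2 both encode stearoyl-CoA desaturases, which make monounsaturated fatty acids. Scd1 had 133, 167 and 149.9 TPM in medium, 12.5, 17.5 and 18.1 TPM in activated and 85.4, 83.4 and 75.8 TPM in TRAIL-treated activated T cells. Scd2 had 46.9, 55.9 and 47.4 TPM in medium, 94.4, 112 and 118 TPM upon activation and 32.4, 30.4 and 26.4 TPM with TRAIL. Scd1 thus fell by 3.16 on the log2 scale upon activation while Scd2 rose by 1.10, and with TRAIL Scd1 rose by 2.29 while Scd2 fell by 1.83 (adjusted p from 2.14e-05 down to 2.46e-08).

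The share of Scd1 in the summed level of the pair was 74.9 ± 1.02% in medium, 12.8 ± 0.94% in activated and 73.3 ± 0.86% in TRAIL-treated activated T cells. The first and last groups overlapped in this share (p = 0.2, two-sided exact permutation test), and both differed from activated cells without overlap (p = 0.1, the smallest possible, adjusted p = 0.18). The fall of Scd1 upon activation and its rise with TRAIL (9.36-fold lower and 5.09-fold higher means) ran in the same direction as the summed markers of several other cell types. Myeloid markers were 37.6-fold lower and 31.9-fold higher, B cell markers 11.98-fold lower and 5.22-fold higher, erythroid markers 79.7-fold lower and 21.5-fold higher, and NK cell markers 9.72-fold lower and 2.69-fold higher, and the part of other cell types in the level of Scd1 was not tested. Relative to medium, both were lower with TRAIL at an adjusted p under 0.05, with log2 fold changes of -0.87 for Scd1 and -0.73 for Scd2 (adjusted p = 0.00174 and 0.00196), under the fold threshold.

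Elovl6, an elongase of saturated and monounsaturated fatty acids, rose by 1.31 upon activation and fell by 1.21 with TRAIL. Fads1 and Fads2, the desaturases of polyunsaturated fatty acids, had lower levels than Scd2 in every library. Fads1 had 10.7 to 13.3 TPM in medium, 15.4 to 20.9 TPM upon activation and 6.54 to 7.54 TPM with TRAIL, and Fads2 had 1.72 to 2.14, 4.67 to 5.74 and 0.819 to 1.43 TPM. In both the TRAIL-treated libraries were the lowest. Fads2 rose by 1.09 upon activation and fell by 1.63 with TRAIL, and Fads1 fell by 1.303 with TRAIL, while its log2 fold change upon activation was 0.66. Together with Insig2 and Scd2, they were the 4 genes of the 34 that were lower with TRAIL relative to both other groups at an adjusted p under 0.05, as were 10.3% of all genes tested.

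The 3 LXR targets moved, as Scd1 did, in the opposite direction to most synthesis enzymes, down upon activation and up with TRAIL. Mylip, a ubiquitin ligase that marks lipoprotein receptors for degradation, had 101, 118 and 111 TPM in medium, 6.83, 10.2 and 9.35 TPM in activated and 89.9, 89.6 and 85.2 TPM in TRAIL-treated activated T cells. Abca1, a cholesterol exporter, had 21.9, 24.6 and 21.3 TPM in medium, 0.732, 1.33 and 1.25 TPM upon activation and 16.6, 15.7 and 15.0 TPM with TRAIL. Abcg1, another sterol exporter, stood at 44.2 to 55.9, 5.40 to 7.54 and 40.9 to 47.9 TPM. The activated libraries of all 3 genes were far below the other 6, and replicate 1 was the lowest of them for each gene. Mean levels in activated T cells were 12.5-fold lower for Mylip, 20.5-fold lower for Abca1 and 7.69-fold lower for Abcg1 than in medium. The log2 fold changes of Mylip, Abca1 and Abcg1 were -3.52, -3.50 and -2.76 upon activation and 3.20, 3.00 and 2.66 with TRAIL (adjusted p at most 7.81e-08).

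The summed level of the 3 targets was 181.2 ± 15.5 TPM in medium, 16.2 ± 3.07 TPM in activated and 149.1 ± 7.03 TPM in TRAIL-treated activated T cells, an 11.2-fold lower level upon activation. Summed myeloid markers were 37.6-fold lower and summed B cell markers 11.98-fold lower in the same libraries, and macrophages are known to express LXR targets. With TRAIL relative to medium, the 3 targets stood at 0.823 of the medium level, the myeloid markers at 0.849 and the B cell markers at 0.435. The defining myeloid markers were low but not at 0 in activated T cells, with 2.08 ± 0.33 TPM for Csf1r and 0.757 ± 0.19 TPM for Adgre1. The part of these cells in the levels of the LXR targets was not tested.

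**Figure D4:**
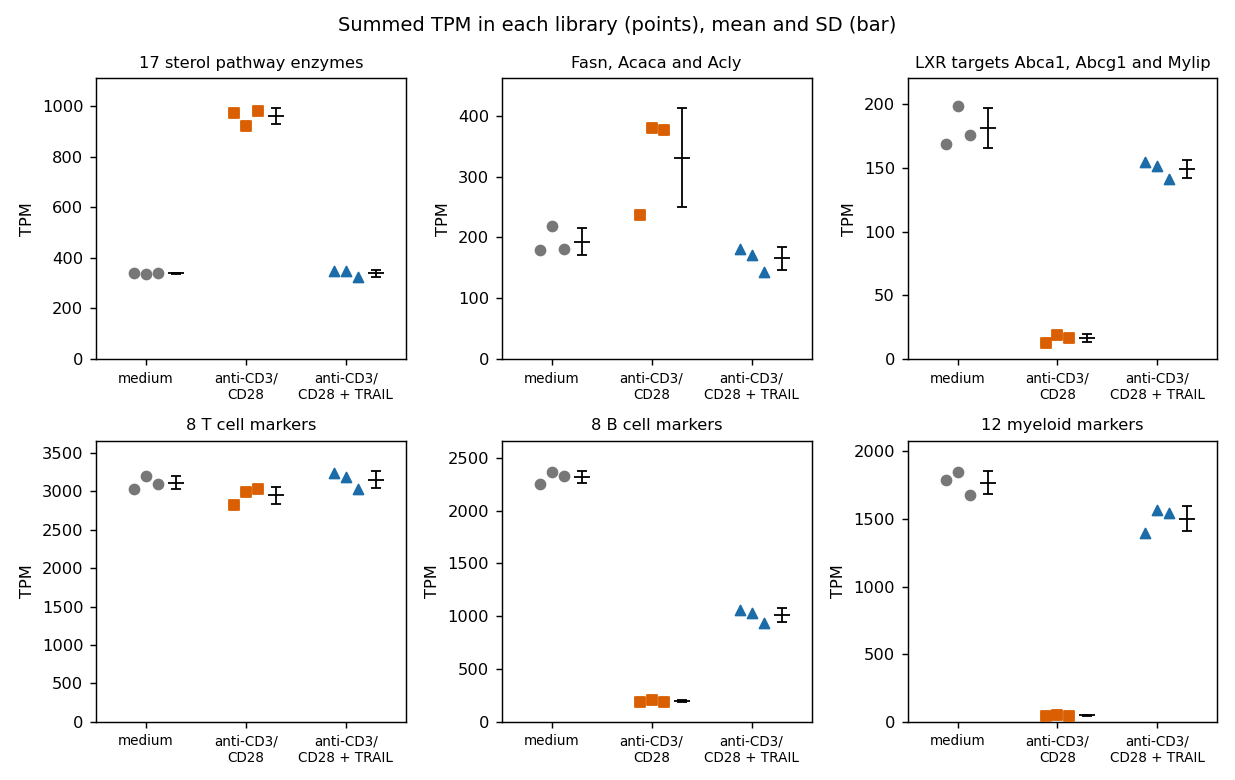
Summed TPM (vertical axes, each from 0) of the 17 enzymes of cholesterol synthesis, of Fasn, Acaca and Acly, of the 3 LXR targets and of T cell, B cell and myeloid markers in the 3 libraries of each group (points), with the mean and SD beside them. The enzymes are highest in activated T cells, the LXR targets follow the same order of groups as the myeloid and B cell markers, and the T cell markers lie between 2820 and 3240 TPM in all libraries.

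Other genes of the same pathways were counted from lists chosen by function, and their counts are set beside the shares of all genes tested that were called (12.4% higher and 19.5% lower upon activation, 16.6% higher and 14.3% lower with TRAIL). Of 6 partners of sterol synthesis tested, 1 rose upon activation (16.7%) and 3 fell with TRAIL (50%). Tmem97, a sterol-regulated membrane protein, stood at 10.00 ± 0.41, 50.2 ± 2.07 and 11.2 ± 1.93 TPM in medium, activated and TRAIL-treated activated T cells, and Acat2, an acetoacetyl-CoA thiolase, fell by 1.26 on the log2 scale with TRAIL. Of 12 genes of the isoprenoid branch, which uses farnesyl diphosphate for dolichol, ubiquinone and prenylated proteins, 1 rose upon activation (8.33%) and 2 fell with TRAIL (16.7%), shares near those of all genes. Nus1, a subunit of the dolichol-making prenyltransferase, was called in both (1.00 and -1.23 on the log2 scale). Of 7 other genes of SREBP processing and sterol sensing, limma called 0 in each comparison, where 31.9%, 30.9% and 4.62% of all genes tested were called, and 4, 4 and 3 had an unadjusted p under 0.05 in the order activated relative to medium, TRAIL relative to activated and TRAIL relative to medium.

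Of 14 genes of sterol uptake, storage and transport, 5 rose (35.7%) and 3 fell (21.4%) upon activation, and 3 rose (21.4%) and 5 fell (35.7%) with TRAIL. The shares that fell upon activation and rose with TRAIL were near those of all genes. Vldlr, a lipoprotein receptor, passed the filter on low values through its activated libraries alone. Under this filter it was thus tested only because it was high in them. It was also called upon activation with no filter. Without Vldlr, 4 rose upon activation and 4 fell with TRAIL. Soat2, which esterifies cholesterol, had 2.56 ± 0.23 TPM in medium, 12.4 ± 1.38 TPM upon activation and 1.92 ± 0.48 TPM with TRAIL, whereas Lipa, the lysosomal acid lipase, had 87.8 ± 9.65, 16.2 ± 2.30 and 63.1 ± 9.12 TPM. Of 28 listed partners of fatty acid synthesis, 10 did not pass the filter. Of the 18 tested, 4 rose (22.2%) and 1 fell (5.56%) upon activation, and 1 rose (5.56%) and 7 fell (38.9%) with TRAIL. Hacd1, a dehydratase of fatty acid elongation, also passed through its activated libraries alone, and without it 3 rose upon activation and 6 fell with TRAIL. Slc25a1, the mitochondrial citrate carrier that feeds cytosolic acetyl-CoA production, stood at 27.1 ± 1.98, 83.9 ± 2.56 and 19.1 ± 1.00 TPM. Acss2, which makes acetyl-CoA from acetate, moved the other way, with 48.9 ± 5.0, 8.80 ± 0.67 and 47.7 ± 9.34 TPM. Of 18 genes of mitochondrial fatty acid oxidation, 2 fell upon activation (11.1%), and 1 rose and 1 fell with TRAIL (5.56% each), each share below that of all genes. Cpt1a, which admits fatty acids to mitochondria, fell by 2.38 on the log2 scale upon activation and rose by 2.18 with TRAIL. Lipa, Acss2 and Cpt1a had the same order of groups as the summed myeloid, B cell, erythroid and NK cell markers. The part of other cell types in the levels of these genes was not tested.

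Of 15 LXR receptor and other LXR target genes tested, 12 fell upon activation (80%) and 10 rose with TRAIL (66.7%), with median log2 fold changes of -1.73 and 1.38. Smpdl3a, a phosphodiesterase, had 144.5 ± 29.0 TPM in medium, 5.05 ± 0.29 TPM in activated and 129.7 ± 3.10 TPM in TRAIL-treated activated T cells. Nr1h3, which encodes LXR alpha and was named after its values were seen, had 19.5 ± 3.21, 1.37 ± 0.30 and 19.2 ± 2.77 TPM. Summed myeloid, B cell, erythroid and NK cell markers had the same order of groups. With TRAIL relative to medium, 1 gene of all these lists was called, where 4.62% of all genes tested were called. It was Abcg4, an ABC transporter of the LXR list (1 of 15, or 6.67%). Abcg4 had 2.66 ± 0.78 TPM in medium and 0.389 ± 0.18 TPM with TRAIL. Abcg4 passed the filter on low values through its medium libraries alone, and it was not tested when any of them was left out. Without it, 11 genes of the LXR list fell upon activation.

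Because TPM are shares of one total, directions near 0 depend on the scaling of the libraries. Under median-of-ratios scaling, the median over all genes tested moved by 0.14 on the log2 scale upon activation, 0.021 with TRAIL and 0.16 in TRAIL-treated activated T cells relative to medium. In that last comparison the summed level of the squalene and sterol arm was 0.958 of the medium level, and its log2 ratio turned to 0.12 under this scaling. The direction of the calls given above did not change under median-of-ratios scaling or quantile normalization for any of the 34 genes.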

How the data were processed

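RNA-seq was measured in splenic CD4+ T cells in 3 groups of 3 libraries, grouped by the sample labels. The authors extracted RNA with TRIzol and prepared mRNA libraries, and the submitters' processing notes list Trimmomatic 0.36, HISAT2 2.1.0, SAMtools 1.2, StringTie 2.1.2 and DESeq2. The deposited values are TPM, with each library summing to 1000003, so depth and counting error are unknown and precision rests on 3 libraries per group. The notes list a human build, but the study's methods name a mouse one, and all 34 genes lie at their GRCm38 (GENCODE M21) loci. Whether counting used strand is not given in the sources used here. Reads of close paralogs such as Scd1 and Scd2 may have been divided between them.

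The model was limma 3.58.1 in R 4.3.3 (lmFit, then eBayes with a trend) on log2(TPM + 1), fitted once to the 9 libraries and without a replicate block. Family shares were tested with exact permutation tests (SciPy 1.17.1). The code was tested on simulated data. Alternatives used a pseudocount of 0.1 or 5, another filter or scaling, no trend, 2 groups or 8 libraries, a replicate block or no fold threshold. The genes and lists were chosen with earlier results of these data known. Every one of the 34 genes could be named, and of the other lists up to 3 called genes per comparison.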

Additional observations from a re-analysis of the deposited data

How the results depend on the processing

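The number of the 34 genes called stayed at 16 to 24 upon activation and 16 to 23 with TRAIL relative to activation, apart from the removal of the fold threshold (30 and 31). A pseudocount of 5 gave the low ends, where Mvd, Elovl6, Fads2 and Hsd17b7 lost their calls upon activation and Mvd, Nsdhl, Elovl6, Fads1 and Fads2 theirs with TRAIL. In TRAIL-treated activated T cells relative to medium the count was 1 under every alternative except without a fold threshold, where it was 10. Leaving out 1 library at a time gave 20 to 21, 19 to 22 and 1. With a replicate block the counts were 20, 21 and 1, unchanged. Libraries with the same number did not deviate together (correlations of -0.31 to 0.29), so the numbers were not read as pairs.

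For the other lists, counts without a fold threshold were 68, 59 and 29, and in the last comparison the count of 1 became 2 with a pseudocount of 0.1, 0 with a pseudocount of 5, 0 with a filter of 5 TPM and 0 to 1 upon leaving out a library. Under median-of-ratios scaling, the log2 ratio of summed TPM was 2.00 for the mevalonate arm and 1.32 for the squalene and sterol arm upon activation. In TRAIL-treated activated T cells relative to medium it was 0.27, 0.12 (reversed), 0.40 for the regulators and -0.095 for the LXR targets. Fasn, Insig1, Mvk and Nsdhl were called higher upon activation under this scaling (log2 fold changes of 1.15, 1.05, 1.03 and 1.02).

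Reversed log2 fold changes belonged to genes that were not called. Scap upon activation stood at 0.14 under median-of-ratios scaling, 0.047 under quantile normalization and -0.098 to 0.13 upon leaving out a library. In TRAIL-treated activated T cells relative to medium, median-of-ratios scaling gave 0.11 for Sqle, 0.12 for Msmo1, 0.027 for Nsdhl and 0.080 for Abcg1. Quantile normalization gave 0.14, 0.12, 0.060 and 0.062 for these genes and 0.015 for Lss. Leaving out a library gave ranges that crossed 0, from -0.024 to 0.047 for Hmgcs1, -0.0062 to 0.15 for Pmvk, -0.081 to 0.15 for Mvd, -0.016 to 0.14 for Fdft1, -0.15 to 0.039 for Sqle, -0.21 to 0.045 for Msmo1 and -0.16 to 0.0032 for Abcg1. The cause was not tested. TPM hold no depth, so what depth limits is unknown.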
